A study of Bos taurus with 2 samples.

Results

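The regions described here are 350 windows of 1 kb on the bovine autosomes in which sperm DNA was both sequenced far more deeply than the rest of the genome and highly methylated. A window was kept when it held 3 or more CpG sites, had a mean of 100 or more reads per CpG in each of the 2 libraries, and had a methylation level of 60% or more in each. The level is the number of methylated reads divided by all reads, summed over the CpGs of the window. Of 2284760 autosomal windows with 3 or more CpGs, 3934 passed the depth limit in both libraries, and 350 of these, 8.90%, also passed the level limit. They are called deep methylated windows below, and the remaining 3584 are called other deep windows. The windows were thus chosen by their depth and their level in these libraries, so both are described without a test.

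The libraries were made by whole genome bisulfite sequencing of frozen semen from a pair of monozygotic Holstein twin bulls used as artificial insemination sires, Bull1 and Bull2. In the study, sperm motility, fresh and after thawing, was on average higher in Bull1 than in Bull2, and other semen traits did not differ significantly. By period, the difference was significant only early in semen collection, before the samples used here. These samples were collected at the same age, within the same week. Each bull is represented by 1 library, so no spread between animals or between semen samples can be given, and every test here compares the libraries and not the bulls. Bisulfite converts unmethylated cytosine so that it is read as thymine, which makes each read at a CpG either methylated or unmethylated.

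In mammals most CpGs outside promoters are methylated in mature sperm. Repeated DNA, such as satellite arrays next to centromeres, is a known exception in cattle, where satellite methylation is lower in sperm than in somatic tissue. Cattle autosomes carry their centromere at one end. An assembly can list fewer copies of a repeat than the animal carries, and the reads of all those copies are then placed on the few that are listed, where depth rises above that of single-copy DNA. Copy number itself was not measured here. No sequence or gene annotation of the assembly used, UMD3.1, was at hand, so neither the bases of the windows nor the genes or repeat families in them are given, and positions are those of the deposited tables.

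The libraries held 544424736 CpG reads for Bull1 and 499287038 for Bull2, over 27203217 listed CpG sites. Mapped reads in the study's text are more numerous for Bull2, the opposite order. Every direction below follows the deposited labels. The median depth of all autosomal windows was 21.4 reads per CpG in Bull1 and 18.8 in Bull2. Summed over the autosomes, the methylation level was 75% in Bull1 and 70.8% in Bull2. The 350 windows held 4753 CpG sites, 0.0183% of the autosomal sites, and took 0.358% of the autosomal CpG reads of Bull1 and 0.348% of those of Bull2.

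In the deep methylated windows the median level was 74.8% in Bull1 (range 60.1 to 94.2%) and 71.8% in Bull2 (60.1 to 90.1%), against 21.9% and 22.1% in the other deep windows and 88.7% and 83.9% over all 2234651 windows tested. Their median thus lay below that of all windows. Summed over reads, however, their level was 76.5% in Bull1 and 73.7% in Bull2, above the summed level of the autosomes in each library. The deep windows as a whole were mostly lowly methylated. With both libraries pooled, 1382 lay under 20%, 1681 between 20 and 40%, 491 between 40 and 60%, 298 between 60 and 80%, and 82 at 80% or more.

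Median depth in the deep methylated windows was 240.4 reads per CpG in Bull1 and 209.4 in Bull2, 11.2 and 11.1 times the median of all windows. The deepest was 263 times the median in Bull1 and 215 times in Bull2. The libraries ranked the windows alike. Pearson's r between them was 0.939 for the level and 0.956 for log2 reads per CpG over the 350 windows, which share the assembly and, in runs, neighbouring reads. Among these windows the level had little relation to depth (Spearman's rho -0.028) or to the number of CpGs (0.057). These correlations are across windows of the same libraries and are descriptions.

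CpG density set the deep methylated windows apart from the other deep windows, and the rule set only a minimum of 3 CpGs. Their median was 10 CpGs per window (quartiles 6 and 19), close to the 8 of all windows tested, while the other deep windows had 38 (quartiles 19 and 55). The most CpG-rich member held 93.

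**Figure D1:**
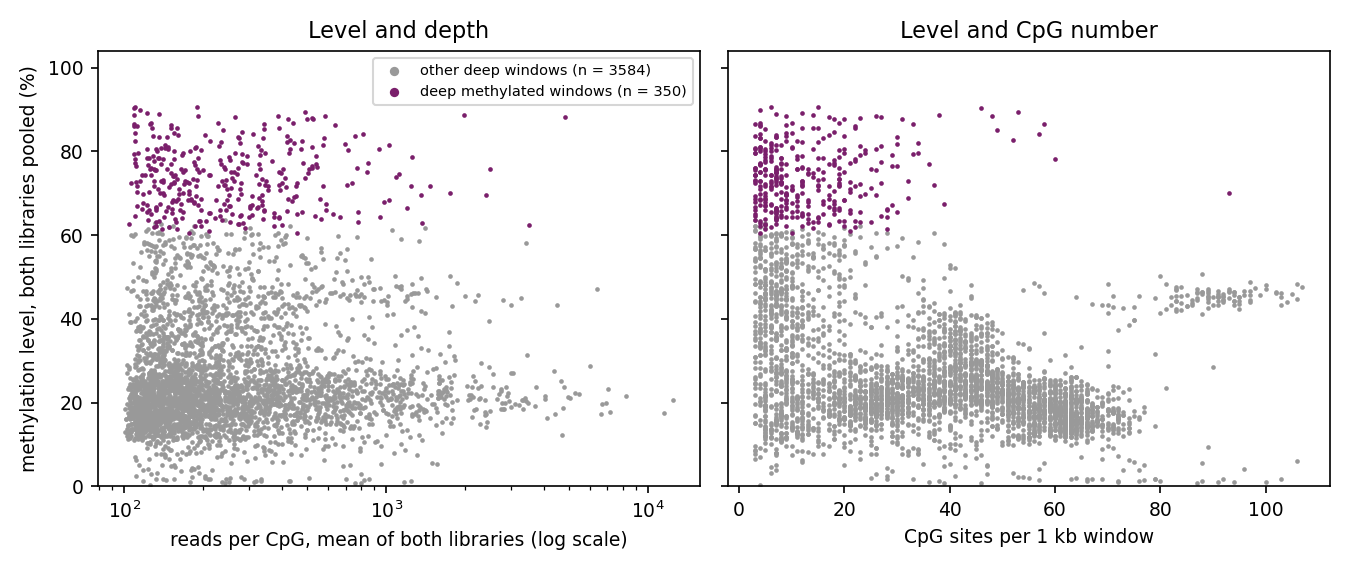
Methylation level of the 3934 deep windows, pooled over both libraries, against reads per CpG on a log scale (left) and against CpG sites per window (right), with 1 point per window. The 350 deep methylated windows, in purple, lie above 60% by definition and mostly at low CpG numbers (median 10), and the 3584 other deep windows, in grey, have a median of 38 CpGs.

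The deep methylated windows were unevenly placed. Chromosome 14 held 106 of them, 13.6 per 10000 windows, chromosome 17 held 53 (7.77 per 10000) and chromosome 21 held 31 (4.65 per 10000). Chromosomes 15, 16 and 22 held none, although they held 22, 48 and 51 other deep windows. On chromosome 14 the deep methylated windows made up 31.4% of all deep windows and on chromosome 21 33.3%, whereas on chromosome 27, which had 369 other deep windows, a single one was methylated. Chromosomes 8 and 27 had the most deep windows, 377 and 370, followed by chromosome 14 with 338 and chromosome 17 with 321, and 18 of those on chromosome 8 were methylated.

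Most of the windows near the beginning of the chromosomes, as the assembly numbers them, were on chromosome 14. The first 2 Mb held 124 of the 350, or 35.4%, against 9.15% of the other deep windows and 2.26% of all windows. Chromosome 14 held 92 of the 124, and without it the shares were 13.1% (32 of 244), 4.03% and 2.25%. Of those 32, 11 lay in the Mb from 1000001 of chromosome 21 and 11 in the first Mb of chromosome 24. In the first Mb of chromosome 14, 77 of 951 windows were deep and methylated, with a further 171 deep windows under 60%. The median level of the 77 was 69.8% in Bull1 and 67.7% in Bull2. The ordinary windows of the same Mb had a median of 37.5% and 36.2%. The limit of 60% places the 77 above that median by definition, so this is a description. The next fullest blocks lay elsewhere, with 22 windows in the Mb from 51000001 and 21 in the Mb from 25000001 of chromosome 17. The 5 fullest blocks together held 150 windows, while 42 of the 87 blocks with any held 1.

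Neighbouring windows within 2 kb of each other formed 227 runs, of which 163 were a single window and 27 had 3 or more windows, 113 in all. The longest was chr17:25035001-25045000, 10 windows in a row. It was methylated at 85.0% in Bull1 and 82.4% in Bull2, at 464 and 397 reads per CpG, and its windows ranged from 78.7 to 88.8% in Bull1 and from 76.8 to 86.4% in Bull2. The second, chr17:25091001-25100000, had 7 windows at 78.0% and 74.4%, and the third, chr19:42104001-42111000, had 6 windows at 73.2% and 69.98%. Directly beside a deep window that was under 60% in 1 or both libraries lay 92 members, and 162 lay beside another member.

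The 5 deepest windows spanned much of the range of levels. The window chr14:633001-634000 had 5634 reads per CpG in Bull1 and 4041 in Bull2 over 27 CpGs. Its level was 89.3% in Bull1 (95% Clopper-Pearson interval 89.1 to 89.5%) and 86.6% in Bull2 (86.4 to 86.8%). The next, chr14:584001-585000, was at 63.1% in Bull1 and 61.3% in Bull2, near the lower limit. The third, chr9:44688001-44689000, was at 77.8% and 73.1%, a difference of 4.75 points that became 2.34 with every CpG given equal weight. The other two, chr14:443001-444000 and chr14:392001-393000, were at 70.3% and 68.5% and at 90.0% and 86.9%. All 5 were deeper in Bull1 and more methylated in Bull1. These intervals count a read at each CpG it covers, so they are narrower than the counting error of independent reads, and the widest interval of any of the 350 windows was 10.1 points, with medians of 3.18 points in Bull1 and 3.605 in Bull2.

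Depth within a window was seldom even. In the median window 66.7% of the CpGs had 100 or more reads in both libraries, and in 69 windows every CpG had. In 30 windows a single CpG held 50% or more of the Bull1 reads. In chr9:44688001-44689000, for instance, the deepest CpG alone held 32.9% of the Bull1 reads, and 38.5% of its CpGs passed 100 reads. Within the deep methylated windows the 3216 deep CpGs had a median level of 80.6% in Bull1 and 76.8% in Bull2, and the 698 CpGs of 20 or more but under 100 reads in both had 70.9% and 68.8%. Of 205 windows with both kinds, the deep CpGs were the more methylated in both libraries in 116 and the less methylated in both in 52, with a median difference of 5.74 points in Bull1 and 5.02 in Bull2. The window level is weighted by reads, so the limit of 60% itself favours high deep CpGs and this is a description.

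The single CpGs were not all methylated. Of 4172 with 20 or more reads in both libraries, 48.1% were at 80% or more in Bull1 and 38.6% in Bull2. Another 36.4% and 43.4% were at 60 to 80%, and 10.6% and 13.0% at 20 to 60%. At 4.87% of the CpGs in Bull1 and 5.01% in Bull2 the level was under 20%. In 97 of the 350 windows every such CpG was at 60% or more in both libraries.

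The low CpGs recurred in both libraries: 184 were under 20% in both, in 92 windows, against 44 in only 1 library. Depth was lower there, with a median of 148 reads in Bull1 and 140 in Bull2 against 249 and 230 at the other CpGs, but 108 of the 184 still had 100 or more reads in both. In chr14:584001-585000, where every CpG was deep, the levels of single CpGs ran from 16.5 to 91.9% in Bull1 and from 17.2 to 90.3% in Bull2. Across the 4152 CpGs of windows with several, Pearson's r between the libraries was 0.961 after the mean of each window was subtracted. The median SD among the CpGs of a window was 12.6 points in Bull1 and 12.2 in Bull2. Whether a low CpG is an unmethylated site or a base that differs from the assembly in some copies, and so reads as thymine, cannot be told apart in these counts.

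The surroundings of the deep methylated windows were measured in windows up to 10 kb away that did not reach 100 reads per CpG in both libraries. At 1 to 5 kb these neighbours had median levels of 65.0 to 69.5% in Bull1 and 62.7 to 67.0% in Bull2, and by 10 kb 74.7 to 75.4% and 71.4 to 73.0%. Around the other deep windows the levels were 22.0 to 33.9% at 1 to 5 kb in Bull1 and 53.9 to 56.7% at 10 kb. Depth was taken over all neighbours, deep ones included. Its median in Bull1 was 107 and 111 reads per CpG at 1 kb on either side, 47.3 and 59.0 at 2 kb, and 25.1 and 29.5 at 10 kb. Around the other deep windows it was still 42.6 on the left at 10 kb. Of the windows directly beside a deep methylated window 45.7% on the left and 47.8% on the right were themselves deep.

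Compared with the nearest such window on either side within 5 kb, the typical deep methylated window was more methylated, by a median of 10.2 points in Bull1 and 10.6 in Bull2 over 344 windows. It was above its neighbours in both libraries in 232 and below in both in 73. The neighbours varied widely. They were under 40% in both libraries for 50 windows and at 80% or more for 45. The level limit favours windows above their surroundings, so this difference is a description.

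**Figure D2:**
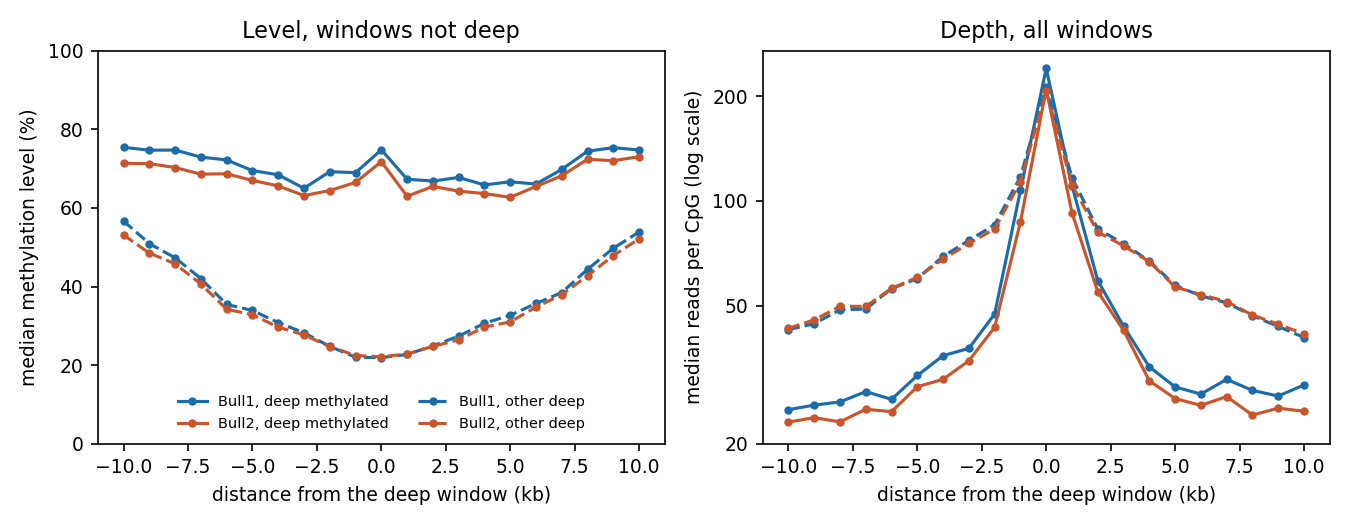
Median methylation level (left) and median reads per CpG on a log scale (right) of windows at each distance from the deep methylated windows (solid) and from the other deep windows (dashed), for Bull1 in blue and Bull2 in orange. The points at 0 kb are the deep windows. At other distances the level is that of windows that did not reach 100 reads per CpG in both libraries, and it stays at 62.7% or more around the deep methylated windows but starts from 22% around the others, while depth is over all windows and reaches 25.1 reads at 10 kb in Bull1 around the deep methylated ones.

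The spacing of CpGs gives a view of repetition that needs no genome sequence, because copies of 1 repeat that have not diverged keep the same distances between their CpGs. A spacing pattern is here the 5 distances, in bp, between 6 successive CpGs inside 1 window, read in either direction, and each pattern was counted over all listed CpGs. Of the 350 windows, 272 had 6 CpGs. For 144 of these, 52.9%, the most widespread pattern occurred at a single place, against 76.8% of all windows tested and 13.5% of the other deep windows. It occurred at 2 or more places in 128 deep methylated windows, 47.1%, against 23.2% and 86.5%. At 10 or more places the shares were 12.5% (34 windows), 12.0% and 78.5%. The share of deep methylated windows with a repeated pattern thus lay between those of ordinary and of other deep windows, and the share with a widespread pattern was close to that of all windows. Windows with many CpGs offer more patterns, and the other deep windows had more CpGs. Copies that have diverged, or that the assembly does not list, are not counted. A pattern at a single place therefore does not mean single-copy DNA.

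Among the deep methylated windows 44 shared a pattern with another, 36 of them with one on a different chromosome. The pattern held by most members had distances of 39, 43, 73, 29 and 44 bp, a span of 228 bp. It occurred at 10 places on chromosomes 10, 14 and 29, and 5 of those were in deep methylated windows. At 4 places each of the 6 CpGs had 100 or more reads in both libraries. These were chr10:12978700-12978928, chr14:441039-441267, chr14:584162-584390 and chr29:46592373-46592601, the last in an other deep window at 49.1% in Bull1 and 49.9% in Bull2. This pattern was picked after the data were seen.

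The 4 deep copies had similar profiles from CpG to CpG. In Bull1 the first CpG was at 39.9 to 50.6%, the second at 78.2 to 83.9%, the third at 54.4 to 66.2% and the fourth at 77.1 to 86.9%. In Bull2 the same CpGs were at 41.7 to 50%, 72.2 to 80.1%, 55.3 to 65.7% and 73.6 to 84.2%. The ranges of the first and the second CpG, which lie 39 bp apart, did not overlap in either library. The fifth CpG varied most between copies, from 52.4 to 85.1% in Bull1. Within each copy the r between the libraries over the 6 CpGs was 0.975 to 0.993. A read from 1 copy can be placed on another, so the copies may share reads.

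**Figure D3:**
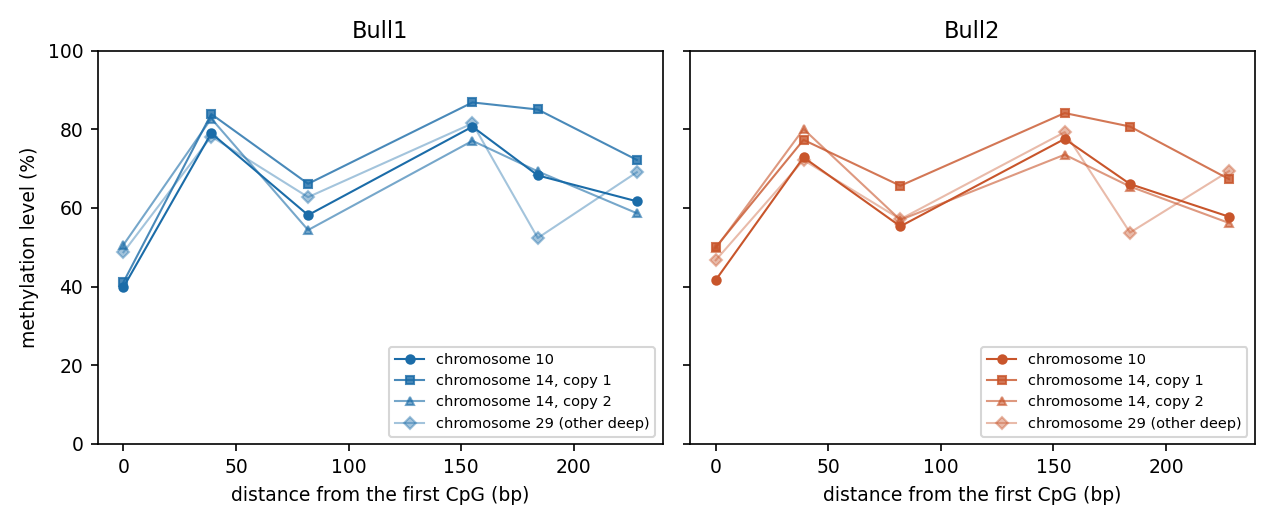
Methylation level of each of the 6 CpGs in the 4 deep copies of the spacing pattern held by most members, against the distance from the first CpG, for Bull1 (left) and Bull2 (right). In every copy the level climbs from the first CpG (39.9 to 50.6% in Bull1) to the second (78.2 to 83.9%) and drops at the third (54.4 to 66.2%).

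A second pattern, with distances of 13, 7, 19, 3 and 14 bp, was shared by 4 deep methylated windows on 3 chromosomes. In these 4 windows its 6 CpGs were much alike within each copy. The copy on chromosome 21 was at 83.8% in Bull1 and 82.7% in Bull2, that on chromosome 24 at 64.7% and 60.05%, and the others on chromosome 14 at 71.5% and 70.01% and at 74.1% and 72.4%. The same pattern at chr14:1102526-1102582, at 14.2 and 9 reads per CpG, was at 17.6% and 22.2%, that at chr21:1916888-1916944, at 16 and 11 reads, at 46.9% and 45.5%, and that at chr21:2028651-2028707, at 47 and 29.8 reads, at 67.4% and 60.3%. The copies in deep methylated windows were bound by the level limit and the others were not.

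Methylation was higher in Bull1 than in Bull2 in 310 of the 350 deep methylated windows, 88.6%, against 47.6% of the other deep windows and 79.6% of all windows tested. The share was 81.4% among all windows tested at 60% or more in both libraries. These classes were not matched for depth, and in shallow windows counting error can turn the sign. Among members the share was 86.1% at 100 to 200 reads per CpG in the shallower library and 92.3% at 500 or more. The median difference was 3.03 percentage points (quartiles 1.56 and 4.74). It was -0.107 points in the other deep windows and 4.01 points over all windows tested. Among windows tested whose pooled level lay in the same range as the middle of the members, 67.4 to 79.3%, the median was 4.03 points. Of those windows 74.7% were higher in Bull1. On the log2 odds ratio, which does not shrink towards the ends of the scale, the medians were 0.24 in all deep methylated windows, 0.31 in windows of that middle range and 0.48 over all. Among all windows tested at 60% or more in both libraries the medians were 4.15 points and 0.52. The deep methylated windows were therefore shifted in the same direction as ordinary methylated DNA, while the other deep windows were centred near 0. Over all 350 members the medians were the smaller on both scales, but members span a wider range than 67.4 to 79.3%. Members at a pooled level of 70 to 80% had medians of 3.64 points and 0.29. At 60 to 70% they were 2.14 points and 0.14, and at 80% or more 3.46 points and 0.39.

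The requirement of 60% in both libraries touches this comparison. It left out 46 deep windows that reached 60% in only 1 library, and 44 of these reached it in Bull1. The limit thus removed mostly windows that were higher in Bull1. Depth also differed between the libraries, and not in step with the difference across classes. The median log2 ratio of reads, Bull1 over Bull2, was 0.18 in the deep methylated windows, 0.17 over all windows and 0.03 in the other deep windows, and its part in the difference was not tested.

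**Figure D4:**
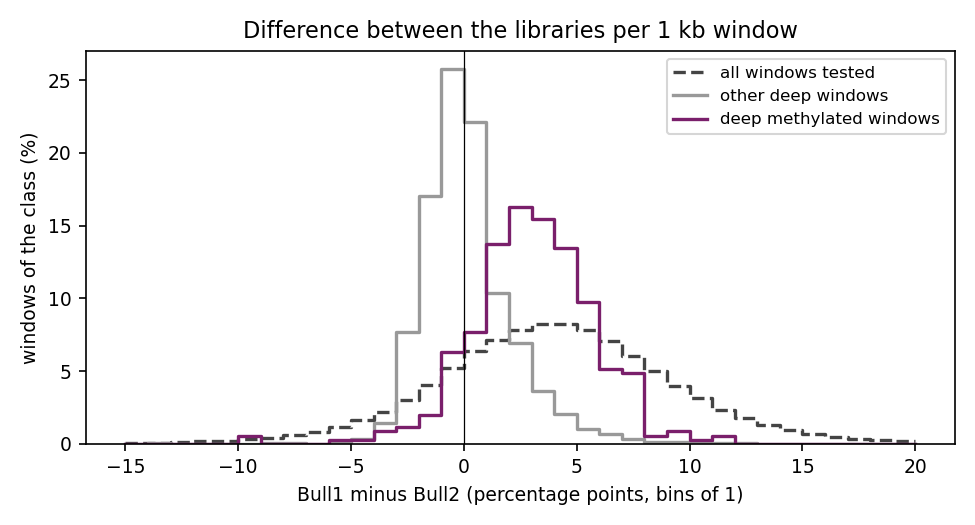
Distribution of the difference in methylation level between the libraries, Bull1 minus Bull2, in bins of 1 percentage point, as a share of the windows of each class within the plotted range. The deep methylated windows (purple) are centred near 3.03 points, all windows tested (dashed) near 4.01 and more widely spread, and the other deep windows (grey) near 0.

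By a two-sided Fisher exact test on the summed reads of each window, with Benjamini-Hochberg adjustment over all windows tested at a false discovery rate of 0.05, 157 of the 350 windows were called higher in Bull1, 44.9%. The background was 8.15% of all windows tested and 10.02% of the other deep windows. A further 6, 1.71%, were called lower in Bull1, against 0.259% of all windows and 15.1% of the other deep windows. That count fell to 3 at a false discovery rate of 0.01 and to 1 with windows shifted by 500 bp. Reads were counted at each CpG they cover, so these p-values are too small. The calls also followed depth. By the reads per CpG of the shallower library, 50 of 173 windows between 100 and 200 reads were called higher, between 200 and 500 reads 73 of 138, and at 500 or more 34 of 39, while the median difference was 2.90, 3.05 and 3.32 points. With a difference of 5 points required as well, 64 were called higher and 2 lower, 18.3% and 0.571%. The shares were 8.10% and 0.208% of all windows and 1.62% and 0.195% of the other deep windows. Depth still entered these calls. Large measured differences towards Bull1 were not more common in the deep methylated windows, where the third quartile was 4.74 points, against 7.30 over all windows tested. These classes were not matched for depth, at medians of 240.4 and 21.6 reads per CpG in Bull1. Counting error spreads shallow windows more, so the quartiles do not compare true differences.

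The difference was present across the kinds of window. It had a median of 2.14 points in windows with a pooled level under 70%, 3.64 at 70 to 80% and 3.46 above. It was 3.94 points with 3 to 5 CpGs, 3.52 with 6 to 15 and 2.34 with 16 or more. On chromosome 14 it was 2.62 points and elsewhere 3.27. Where the spacing pattern occurred at a single place it was 3.46 points and 134 of 144 windows were higher in Bull1, at 2 to 9 places 2.37 points and 89 of 94, and at 10 or more places 2.10 points and 25 of 34.

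The largest difference towards Bull1 was in chr10:64471001-64472000, with 433 of 503 reads methylated in Bull1 and 421 of 564 in Bull2. That is 86.1% against 74.6%, a difference of 11.4 points (adjusted p = 0.000533, Fisher exact test), over 4 CpGs. Next came chr21:2319001-2320000 at 75.2% and 64.1%, where 63.4% of the Bull1 reads fell on a single CpG. The window chr17:25094001-25095000 was at 71.7% and 61.1% over 13 CpGs, chr17:51623001-51624000 at 84.7% and 75%, and chr14:385001-386000 at 70.9% and 61.5%. All 5 passed the false discovery rate, but that of chr21:2319001-2320000 did not without its deepest CpG, where the difference was 6.07 points. With every CpG given equal weight the differences shrank from 11.1 to 6.48 points in chr21:2319001-2320000, from 10.6 to 5.82 in chr17:25094001-25095000, from 9.68 to 3.498 in chr17:51623001-51624000 and from 9.40 to 1.88 in chr14:385001-386000, and that of chr10:64471001-64472000 was 11.005 points.

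Of the 5 largest differences towards Bull2, 3 passed. The window chr14:130001-131000 was at 68.8% in Bull1 and 78.1% in Bull2 over 3 CpGs, a difference of -9.32 points (adjusted p = 0.0392, Fisher exact test), and without its deepest CpG it was no longer called, at a difference of -9.39 points. The window chr3:17429001-17430000 was at 69.5% (736 of 1059 reads) and 78.8% (853 of 1083 reads), with an adjusted p of 0.000272 by the Fisher exact test. With every CpG given equal weight these differences were -9.34 and -9.42 points. Neither chr14:545001-546000, at 60.8% and 65.9%, nor chr21:1447001-1448000, at 73.3% and 78.1%, passed the false discovery rate. The fifth, chr14:950001-951000, was at 66.2% and 69.9% and was also 1.02 log2 units deeper in Bull2, with 368 reads per CpG in Bull1 and 747 in Bull2. With every CpG given equal weight its difference became 2.23 points towards Bull1.

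In the 82 windows with a pooled level of 80% or more, 78 were higher in Bull1, 95.1%. The 3 windows with the highest level in their less methylated library, a choice that favours small differences, were less one-sided. The window chr21:2130001-2131000 was at 91.1% and 90.1%, and chr19:3432001-3433000 at 91.0% and 88.5%, neither past the false discovery rate. The window chr25:36109001-36110000, with 53 CpGs, was at 88.6% in Bull1 and 89.8% in Bull2, lower in Bull1 by the Fisher exact test (adjusted p = 0.00145), and single CpGs there lay between 84.7 and 96.1% in Bull1.

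Tested CpG by CpG, 82 sites of the autosomes and X were called differentially methylated cytosines (DMCs) by the Fisher exact test at a false discovery rate of 0.05, and 44 of them, 53.7%, lay in 13 deep methylated windows. That was 0.974% of the 4517 sites tested there, against 0.000342% of all sites tested and 0.0128% of those in other deep windows. These calls are not the study's own DMC list, which was not used here. That list is far longer, although the study states the same test, coverage minimum and false discovery rate. The cause of the gap was not tested. All 44 were higher in Bull1, while 5 of the 82 were lower. Their median difference was 6.39 points, from 2.36 to 18.3. The DMCs sat where depth was greatest, at a median of 3416 reads in Bull1 and 2292 in Bull2. At 1000 or more reads in both libraries 34 of 234 sites (14.5%) were called in the deep methylated windows and 13 of 9250 (0.141%) in the other deep windows. Between 1000 and 2000 reads in the shallower library the counts were 10 of 142 and 2 of 5783, between 2000 and 5000 reads 12 of 77 and 8 of 2761, and at 5000 or more 12 of 15 and 3 of 706. Neighbouring CpGs share reads, so these sites are not independent and the counts rest on few places. Single windows on chromosomes 28 and 14 held 11 and 10 of the 44 DMCs. Without chromosome 14, which held 19 of the 44, 25 remained, and without the 5 deepest windows 27.

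The most significant DMC lay on chromosome 9 at position 44688030, with 9618 of 11001 reads methylated in Bull1 and 6728 of 8201 in Bull2. The levels were 87.4% and 82.0% (adjusted p = 1.45e-17, Fisher exact test). Another 2 DMCs lay in the same window. The window chr14:633001-634000, the deepest of all, held 10 DMCs with differences of 2.36 to 5.81 points. The window chr3:42154001-42155000 held 5, with 5.77 to 7.84 points, and chr14:392001-393000 held 4. The DMCs of these very deep windows were thus small differences counted on many reads.

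The window with the most DMCs was of another kind. In chr28:1894001-1895000, with 93 CpGs at 1535 reads per CpG in Bull1 and 1961 in Bull2, the window levels were 71.1% and 69.1%, yet 11 DMCs lay within 152 bp, from position 1894111 to 1894262. Over the 14 CpGs of that stretch the level was 71.3% in Bull1 (9918 of 13903 reads) and 58.3% in Bull2 (8773 of 15060), a difference of 13.1 points, and all 14 were higher in Bull1. The stretch was bounded by its first and last DMC, so its direction and its size follow from that choice and are descriptions. The 4 CpGs before the stretch were at 70.8% and 70.3%, and the 75 after it at 71.1% and 70.04%.

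The largest difference was at position 1894183, with 69.9% in Bull1 and 51.6% in Bull2, 18.3 points (adjusted p = 6.41e-13, Fisher exact test). At the first DMC, position 1894111, the levels were 61.0% and 43.6%. Beyond the last DMC the difference was 12.4 points at position 1894265, between 4.57 and 9.58 points from 1894284 to 1894389, and between -1.71 and 6.02 points from 1894395 to 1894588, unevenly from CpG to CpG. Depth changed over the same bases: reads per CpG fell from 1474 to 993 in Bull1 and from 2268 to 1076 in Bull2 between the CpGs before the stretch and those in it. The part of depth in the difference was not tested. Further along, from position 1894498 to 1894588, both libraries were low together, down to 52.0% in Bull1 and 46.3% in Bull2. In the window before, chr28:1893001-1894000, the levels were 71.0% and 72.7%, lower in Bull1 (adjusted p = 0.00212, Fisher exact test), and in the window after they were 72.6% and 73.6%.

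**Figure D5:**
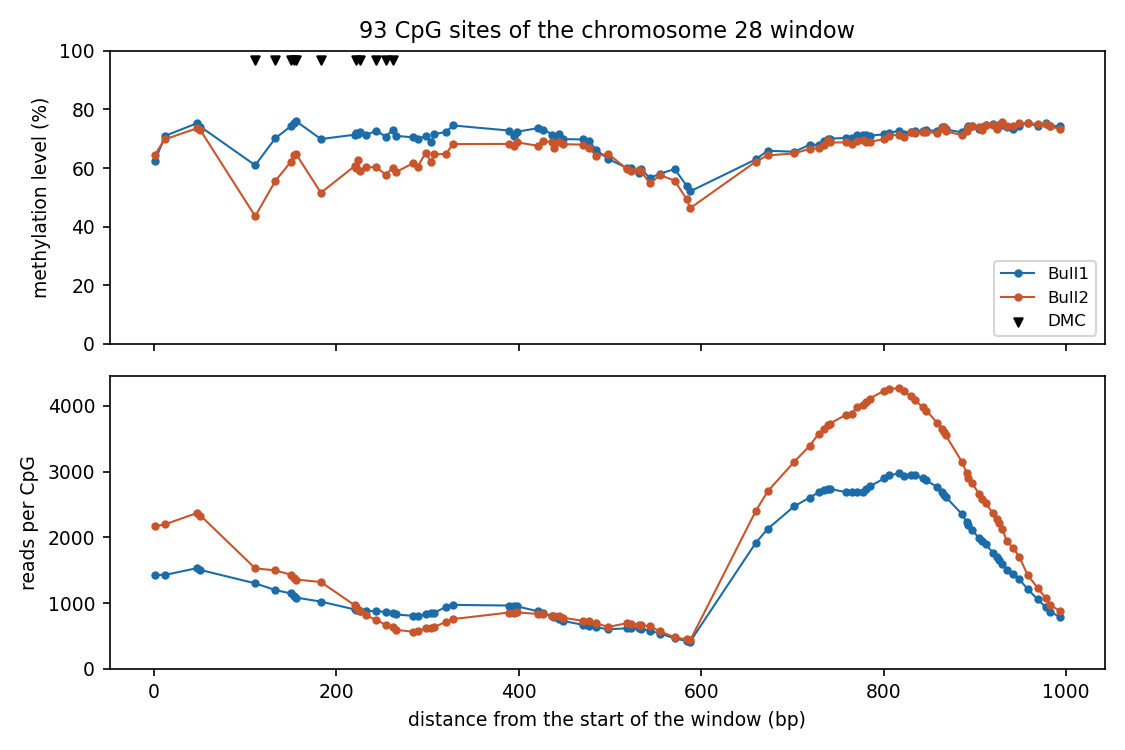
Methylation level (top) and reads per CpG (bottom) at the 93 CpGs of the chromosome 28 window, against the distance in bp from the start of the window, for Bull1 in blue and Bull2 in orange, with triangles marking the 11 DMCs. The DMCs bound a stretch of 152 bp in which Bull2 is lower by 13.1 points over 14 CpGs. Summed over the reads of the 75 CpGs after it the libraries differ by 1.10 points, and by 12.4 points at the nearest of them.

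The windows nearest to the limits show how fine the borders were. Just inside the level limit lay chr21:2433001-2434000, at 60.1% in Bull1 and 60.5% in Bull2, and chr14:516001-517000, at 63.5% and 60.1%. Just outside lay chr14:571001-572000, at 62.9% and 59.92%, and chr17:50667001-50668000, at 62.6% and 59.97%. Just inside the depth limit lay chr17:25094001-25095000, with 122 and 100.2 reads per CpG, and chr14:11407001-11408000, with 119 and 100.3. Just outside lay chr21:1880001-1881000, with 99.7 and 138 reads, and chr23:52490001-52491000, with 136 and 99.8.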

How the data were processed

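Sperm DNA of the 2 bulls was sequenced by whole genome bisulfite sequencing. Per the submitters' processing notes and the study's methods, reads were checked with FastQC 0.11.2, trimmed with Trim Galore 0.4.0, aligned to UMD3.1 with Bismark and Bowtie2 (0.14.5 as stated) at default settings and deduplicated. In its default mode Bismark keeps a read only if it has 1 best alignment. The deposited tables give, for each CpG, the methylation level as a fraction and the counts of methylated, unmethylated and all reads made by the authors. Whether positions count from 0 or 1 is not stated, and they are used as listed.

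The counts were summed in 1 kb windows, and windows with 3 or more CpGs and a mean of 5 or more reads per CpG in both libraries were tested with a two-sided Fisher exact test. CpG sites of the autosomes and X with 5 or more reads in both libraries were tested alike. Adjustment was by Benjamini-Hochberg over all windows or all sites, at a false discovery rate of 0.05. Odds ratios had 0.5 added to each count. Intervals are 95% Clopper-Pearson intervals, and reads carry no molecular identifiers, so they cover counting error only, and as a read counts at each CpG it covers they are too narrow even for that. Named windows were the 5 deepest, the 5 with the largest difference in each direction, the 3 highest and 3 lowest in level, the 3 longest runs and the 2 nearest to each limit on each side, and the 3 chromosomes with most and fewest members per window. Other windows named for their DMCs, spacing or neighbours were chosen after their values were seen. The windows and limits were chosen with earlier results of these data known. Python 3.11.15, numpy 2.4.6, pandas 2.3.3, scipy 1.17.1 and numba 0.67.0 were used, and the window test was tested on simulated data.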

Additional observations from a re-analysis of the deposited data

Results flagged for a closer look

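The X chromosome was outside the windows described. Under the same limits of depth and level, 44 of its 127623 windows were deep and methylated, of 232 deep ones. Of the 44, 43 were higher in Bull1, with a median difference of 3.81 points and a range of -0.971 to 7.76 points. The share higher in Bull1 among all X windows was not computed. It was 79.6% over all autosomal windows tested, which were not matched for depth.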

How the results depend on the processing

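Of 48 settings tried for the main results, 33 kept them within their limits, 15 moved them and 0 reversed them. Only the median difference and the share higher in Bull1 could reverse, as a count could only be kept or moved. The limit was a fixed ratio for counts. For the median difference and the share higher in Bull1 it was a 95% interval that treats windows as independent. Settings with another minimum of reads for testing could hardly change the calls, as every window had a mean of 100 or more reads per CpG. The number of windows, 350, became 1143 at 50 or more reads per CpG, 177 at 200 or more, 193 at a level of 70% or more and 182 with at least 10 CpGs. The median difference became 3.44 points at 70% or more and 2.58 with at least 10 CpGs, and the share higher in Bull1 91.7% at 70% or more and 84.6% with sites weighted equally. The windows called higher became 64 with 5 points required. Those called lower became 3 at a false discovery rate of 0.01, 2 with 5 points required, 1 with windows shifted by 500 bp and 3 without chromosome 14. The DMCs in the windows became 25 without chromosome 14 and 27 without the 5 deepest windows, both settings chosen after seeing the data. Of 21 named windows, chr14:950001-951000 reversed to 2.23 points with sites weighted equally. The calls of that window and of chr14:130001-131000 were lost at a false discovery rate of 0.01 and without their deepest site, where the differences were -2.48 and -9.39 points, and that of chr21:2319001-2320000 without its deepest site, where its difference was 6.07 points. The cause of these changes was not tested, apart from the smaller number of windows, sites or calls that a stricter limit leaves. No paired analysis was possible because the design holds a single library of either bull. For the same reason depth limits only the counting error, and the spread between animals, ejaculates and libraries is unknown.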
